A study of Mus musculus with 8 samples.

Results

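The Dmrt family of transcription factors was read through 7 genes with a probe set that named them alone (Dmrt1, Dmrt2, Dmrt3, Dmrta1, Dmrta2, Dmrtb1 and Dmrtc2), of 19938 genes measured in this way, and each had 1 such probe set. The family was selected on its known difference between the knockdown and control arrays, led by the signal of Dmrt1, so that the difference of each member between the groups is given as a description without a test. Of 11 probe sets whose annotation held a Dmrt name, 2 carried several names and 2 belonged to Dmrtc1a and Dmrtc1b, near-identical X-linked copies, and neither kind entered the family. Levels are log2 signals after robust multi-array averaging (RMA), a normalization that equalises the distributions of the arrays and summarises the probes of a probe set. Because such a level also depends on the probes, no Dmrt gene is ranked above another by its level.

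The Dmrt genes encode transcription factors that share the DM domain, a zinc-binding DNA recognition module first described in the fly protein Doublesex and the nematode protein MAB-3. In mammals these factors are known for sex determination, germ cell development and the patterning of the forebrain, spinal cord and somites. Dmrt1 acts in the testis and in germ cells, Dmrt3 in interneurons of the spinal cord and in the telencephalon, and Dmrt2 in somites. Dmrta1 and Dmrta2 are expressed in the developing telencephalon, Dmrtb1 acts at the switch of spermatogonia from mitosis to meiosis, and Dmrtc2 acts on the sex chromosomes of spermatocytes in meiosis.

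The arrays compared a KDM2B knockdown line with a control line of E14, a mouse embryonic stem cell (ESC) line that grows without feeder cells, in medium with leukaemia inhibitory factor (LIF). Both lines had been infected with a lentivirus that carries puromycin resistance and selected as stable lines, the knockdown line with the shRNA shKdm2b and the control line with shScrambled. Affymetrix Mouse Gene ST arrays were used for the RNA of 4 samples per line, with knockdown replicates 1 to 4 at passages 27, 28, 29 and 30 and control replicates 1 to 4 at passages 28, 29, 30 and 31. The replicates are labelled as biological, but each group rests on 1 shRNA and no separately derived line is named, so that standard errors and p-values measure the spread between samples. KDM2B recognises non-methylated CpG DNA and belongs to a variant polycomb repressive complex, a repressor of developmental genes, and the comparison asks which transcripts depend on it.

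The hairpin target sequences are shown because they define the groups, which also differ in passage. Each is a 21-base run in lower case.
shKdm2b: cgctgtggaaatatctgtcat
shScrambled: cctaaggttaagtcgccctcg
Kdm2b signal was 8.68 to 9.45 with the first hairpin and 10.74 to 11.34 with the second, a log2 fold change of -2.05 (standard error, SE, 0.18, limma adjusted p = 0.000891), and the groups did not overlap. The 10 measured markers of ESCs, among them Pou5f1 and Nanog, had list means of 13.29 to 13.33 in the knockdown arrays. In the control arrays the list means were 13.03 to 13.18, without overlap. The median log2 fold change was 0.22 and 9 of the 10 were above 0. Over all genes the median was 0.05 and 61.7% were above 0. The part of the marker difference in the Dmrt values was not tested. The rule for a changed gene required an adjusted p under 0.05 in most of its probe sets and a change of at least 1.5-fold. In limma none of these markers met it, while 7 were higher at an unadjusted p under 0.05. For this contrast the share of all genes at that unadjusted limit was not counted, so nothing is read from the 7. Of 569 genes that met this rule, 284 were higher and 285 lower in the knockdown arrays.

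Since the DNA recognised by KDM2B holds CpG, the CpG content of the Dmrt promoters was counted in windows of 300 bases from RefSeq on GRCm38.p6 (250 upstream of the transcript start and 50 downstream). A window was found for 6 of the 7 genes, all but Dmrt1, with 2 windows for Dmrtb1. The 7 windows held 9 to 28 CpG, against a median of 7 (quartiles 3 and 20) over all 32851 windows. Dmrta2 and Dmrtc2 held 26 each, the Dmrtb1 windows 28 and 9, Dmrt2 18, Dmrt3 15 and Dmrta1 13. A G+C content of at least 50% with an observed over expected CpG ratio of at least 0.6 was found in 4 of the 7 windows, and in 33.5% of all windows. The core letters ACAATGT of the site that DM domains bind, read on both strands and thus also as ACATTGT, stood in the Dmrta2 window alone of these 7, and in 2.96% of all windows. The upstream stretches of the paralogs Dmrta1 and Dmrta2 are shown because this pair differs in CpG content, with 7 in the 250 bases of chr4:89687948-89688197 and 18 in the 214 bases of chr4:109977775-109977988. Both are on the plus strand, and each CG is in capitals.
Dmrta1: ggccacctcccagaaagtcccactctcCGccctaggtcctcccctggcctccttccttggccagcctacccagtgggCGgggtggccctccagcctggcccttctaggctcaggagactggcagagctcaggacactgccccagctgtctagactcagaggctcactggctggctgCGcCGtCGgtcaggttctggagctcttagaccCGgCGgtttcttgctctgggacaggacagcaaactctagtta
Dmrta2: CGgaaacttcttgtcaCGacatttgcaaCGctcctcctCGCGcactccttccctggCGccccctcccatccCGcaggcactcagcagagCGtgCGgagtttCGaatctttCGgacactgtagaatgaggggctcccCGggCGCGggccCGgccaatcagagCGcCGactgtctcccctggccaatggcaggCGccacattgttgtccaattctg
Neither gene met the rule on the arrays, and methylation and binding at these promoters were not analysed here.

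Dmrt1, the member with the best known role in the testis and in germ cells, had the largest difference of the family and was 1.97-fold higher in the knockdown arrays. For replicates 1 to 4, its log2 signal read 11.07, 10.75, 10.96 and 11.02 with shKdm2b and 10.20, 9.98, 9.80 and 9.92 with shScrambled. Every knockdown array lay above every control array, and the lowest knockdown array was 0.55 above the highest control array. The means were 10.95 ± 0.14 and 9.98 ± 0.17 (SD, n = 4 each), a log2 fold change of 0.98 (SE 0.10). The difference was several times the SD of the arrays in either group. It ranked 72 from the top among the 19938 genes. It met the rule as 1 of 7 Dmrt genes, where 2.85% of all genes met it and 1.42% did so with a higher signal, and as the family was picked with this contrast known, nothing is read from that count. A lower signal by the rule was found for 1.43% of all genes and for none of the Dmrt genes.

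Dmrt3 and Dmrt2 lie beside Dmrt1 on chromosome 19, with no other protein-coding gene between the 3 in the annotation. Dmrt3, a gene of spinal cord interneurons and telencephalon, read 9.49, 9.16, 9.02 and 9.11 with shKdm2b and 8.99, 9.00, 8.89 and 8.99 with shScrambled (log2 signal, replicates 1 to 4). All knockdown arrays of Dmrt3 lay above all control arrays, but by as little as 0.018, and knockdown replicate 1 stood well above the other 3. The means were 9.20 ± 0.21 and 8.97 ± 0.05 (SD, n = 4 each), and the log2 fold change was 0.23 (SE 0.10). Without knockdown replicate 1, the Dmrt3 difference was 0.13.

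Dmrt2, which is needed for somite patterning, read 8.22, 8.15, 7.98 and 8.05 with shKdm2b and 8.16, 8.05, 7.83 and 7.98 with shScrambled (log2 signal, replicates 1 to 4). The groups overlapped over most of their range, and the signal of each knockdown array was slightly above that of the control array with the same number. In each such pair the knockdown array was a passage earlier. At equal passage, the knockdown signal was lower at passages 28 (8.15 against 8.16) and 29 (7.98 against 8.05) and higher at passage 30 (8.05 against 7.83). The means were 8.10 ± 0.11 and 8.01 ± 0.14 (SD, n = 4 each), a log2 fold change of 0.09 (SE 0.08). With passage as a covariate, the Dmrt2 difference was 0.02 (SE 0.07). Within the cluster, the difference without this covariate came to 0.98 for Dmrt1, 0.23 for Dmrt3 and 0.09 for Dmrt2. As the family was chosen on this contrast, no trend with position is read from these values.

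Dmrtc2, the gene that acts on the sex chromosomes in meiosis, came next to Dmrt1 in the size of its difference. For replicates 1 to 4, its log2 signal read 9.19, 8.77, 8.62 and 9.27 with shKdm2b and 8.49, 8.51, 8.45 and 8.56 with shScrambled. The control arrays were close together, whereas knockdown replicates 1 and 4 were high, replicate 2 lay in between and replicate 3 was only just above the controls, with a gap of 0.057 between the groups. The means were 8.96 ± 0.32 and 8.50 ± 0.05 (SD, n = 4 each), a log2 fold change of 0.46 (SE 0.14) or 1.38-fold, which did not meet the rule. The difference of Dmrtc2 was 0.57 without knockdown replicate 3 and 0.36 without knockdown replicate 4. Its SD within groups, 0.23, was higher than that of 91.9% of all genes.

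Dmrtb1, expressed in spermatogonia that leave mitosis, read 8.97, 8.94, 8.78 and 9.00 with shKdm2b and 8.77, 8.79, 8.83 and 8.75 with shScrambled (log2 signal, replicates 1 to 4). Knockdown replicates 1, 2 and 4 lay above all controls, and replicate 3 lay among them. The means were 8.92 ± 0.10 and 8.79 ± 0.03 (SD, n = 4 each), a log2 fold change of 0.14 (SE 0.06). Dmrta2, a gene of the cortical hem and dorsal telencephalon, read 9.39, 9.24, 9.05 and 9.29 with shKdm2b and 9.02, 9.15, 9.06 and 9.21 with shScrambled (log2 signal, replicates 1 to 4). Here too knockdown replicates 1, 2 and 4 were above all controls and replicate 3 was among them. The means were 9.24 ± 0.15 and 9.11 ± 0.08 (SD, n = 4 each), a log2 fold change of 0.13 (SE 0.08).

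Dmrta1, the paralog of Dmrta2, was the only member with a lower mean in the knockdown arrays. For replicates 1 to 4, its log2 signal read 7.95, 7.67, 7.67 and 7.53 with shKdm2b and 7.87, 7.77, 7.91 and 7.74 with shScrambled. Knockdown replicates 2, 3 and 4 lay below all controls and replicate 1 above all of them, so that the groups overlapped. The means were 7.70 ± 0.17 and 7.82 ± 0.08 (SD, n = 4 each), a log2 fold change of -0.12 (SE 0.09). Without knockdown replicate 1 it was -0.20, and without knockdown replicate 4 it was -0.06.

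**Figure D1:**
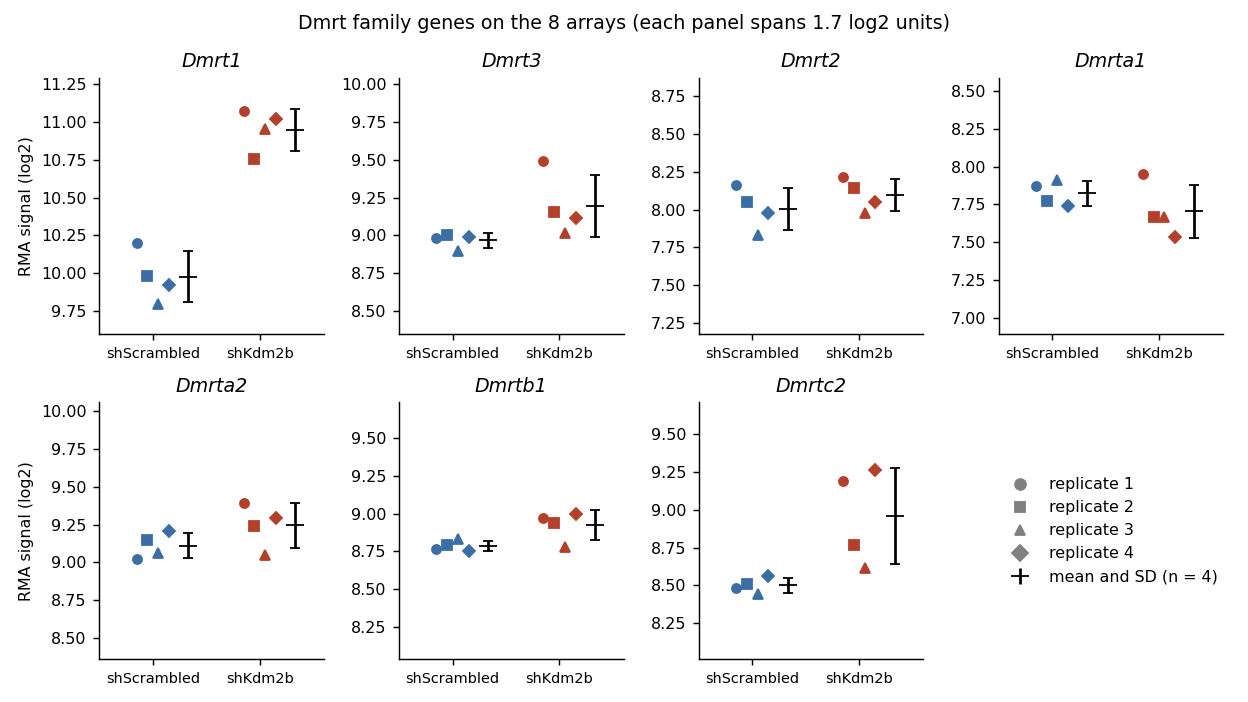
Log2 RMA signal of the 7 Dmrt genes on each of the 8 arrays, with a panel per gene, the group on the horizontal axis and a symbol per replicate number. Black bars give each group's mean with its SD (n = 4), and all vertical axes span the same range. The knockdown arrays lie above the control arrays for Dmrt1, Dmrt3 and Dmrtc2, by a wide margin for Dmrt1 alone, and overlap with them for Dmrt2, Dmrta1, Dmrta2 and Dmrtb1.

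By counts, 1 of the 7 genes met the rule and 6 did not, 6 had a log2 fold change above 0 and 1 below, and the groups were apart for 3 genes, all higher. The median log2 fold change was 0.14, beside 0.05 over all genes, of which 61.7% were above 0. Of all genes, 11.8% had every knockdown array above every control array and 9.18% had every one below. Because the values of this contrast entered the choice of the family, these counts describe the members and are not set against the shares of all genes.

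The spread of the Dmrt genes within groups was not used to choose them. It was 0.07 to 0.23 (SD within groups), against a median of 0.11 over all genes, and 1 of the 7, Dmrtb1, was below that median. The knockdown array of replicate 1 was above its group mean for 7 of 7 Dmrt genes, by 0.17 on average, and that of replicate 3 was below it for 6 of 7, with a mean deviation of -0.14. For knockdown replicates 2 and 4 the mean deviations were -0.06 and 0.03, and for control replicates 1 to 4 they were 0.05, 0.01, -0.06 and -0.004. The knockdown arrays of replicates 1 and 3 thus held the largest mean deviations of the 8 arrays. Both also stood apart over all genes, as 66% of all genes were above their group mean on the array of replicate 1 and 62.2% below it on that of replicate 3. In a limma fit with array weights, these arrays had the lowest weights of the 8, at 0.353 and 0.567, against 4.51 for knockdown replicate 2. The deviations are therefore not called particular to the Dmrt genes.

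**Figure D2:**
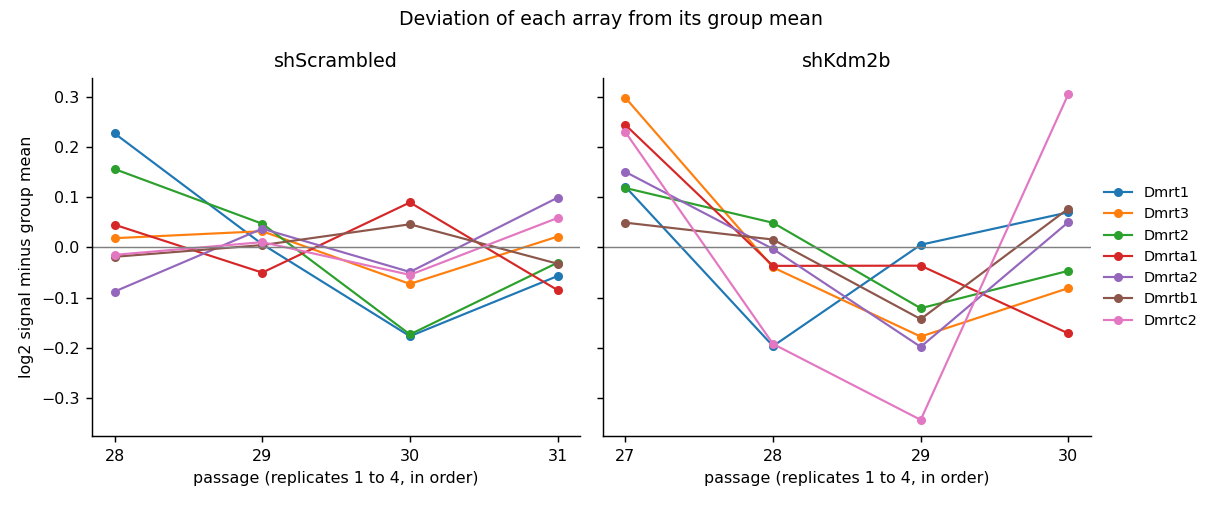
Deviation of the log2 signal from the group mean (vertical axis) against the passage of the sample (horizontal axis) for each Dmrt gene, with the control arrays on the left and the knockdown arrays on the right. Each line is a gene and each point an array. All 7 genes lie above 0 at passage 27 of the knockdown line, whose array is replicate 1, and 6 lie below 0 at passage 29, whose array is replicate 3.

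As a description over the 8 arrays, which share their normalization and their replicate numbers, the deviations of 2 members from the group means correlated above 0 in 20 of the 21 pairs, with a median of 0.38. Over all pairs of the 19938 genes, 53.2% correlated above 0, with a median of 0.05, and as members share arrays that stand apart, nothing particular to the family is read from this. The highest correlation was 0.79, between Dmrta2 and Dmrtc2. It was 0.77 for Dmrtb1 with Dmrtc2, both genes of germ cells, and 0.75 for Dmrt3 with Dmrta2. For Dmrt1 the highest was 0.60 with its neighbour Dmrt2, and the lowest was -0.04 with Dmrtb1. With Dmrtc2 it was 0.42.

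Passage was tested as a slope within groups, a measure that the choice of the family did not use. The log2 slope per passage was -0.07 for Dmrt2 (SE 0.03, unadjusted p = 0.0429, limma adjusted p = 0.452) and -0.07 for Dmrta1 (SE 0.03, unadjusted p = 0.0561, limma adjusted p = 0.469). For Dmrt3 and Dmrt1 it was -0.07 and -0.05 (SE 0.04 and 0.04, limma adjusted p = 0.552 and 0.692). Dmrta2, Dmrtb1 and Dmrtc2 had slopes of -0.0010, -0.0037 and 0.01 (SE 0.04, 0.03 and 0.07, limma adjusted p = 0.994, 0.970 and 0.959). None of the 7 genes passed the adjusted threshold in limma and 1, Dmrt2, had an unadjusted p under 0.05, whereas of all 19938 genes 0 passed after adjustment and 9.61% had an unadjusted p under 0.05. Of the 7 slopes, 6 were below 0, as were 63.4% of the slopes of all genes, and leaving out 1 array could turn the sign for Dmrta2, Dmrtb1 and Dmrtc2. Within a group, each passage is 1 array, so that passage and replicate number cannot be told apart.

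The genes whose deviations were most like those of Dmrt1 over the 8 arrays were Prr13 (r = 0.96), Gatd3a (0.96), Olfr1246 (0.95), Ccdc189 (0.95) and Pamr1 (0.95). Their own differences between the groups were unlike that of Dmrt1. Prr13, Olfr1246 and Ccdc189 had log2 fold changes of -0.25, 0.09 and 0.17 and did not meet the rule. The signal of Olfr1246 was 4.03 to 4.37, near the low end of all values on these arrays (3.54 to 15.0). Gatd3a, a gene of a mitochondrial protein, had a log2 fold change of 0.28 (limma adjusted p = 0.0103) and Pamr1, which encodes a secreted protein with a serine protease-like domain, had -0.31 (limma adjusted p = 0.0280), both short of 1.5-fold. With 8 arrays such correlations were common, since 36 genes exceeded 0.9 with Dmrt1, 64 with Dmrtb1 and 684 with Dmrt3.

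The genomic neighbours of the Dmrt genes were examined next, as the 3 nearest measured protein-coding genes on each side of each member. Of 30 such genes, 0 rose by the rule in limma, 1 fell and 29 did not meet it, with a median log2 fold change of 0.06. Over all genes, 1.42% rose and 1.43% fell by the rule, with a median of 0.05. Before adjustment, p in limma was under 0.05 for 6 higher and 5 lower neighbours. All genes were not counted at that limit, so nothing about these loci is read from it. Kank1, the gene before Dmrt1 and a regulator of the actin cytoskeleton, read 9.83, 9.56, 9.34 and 9.50 with shKdm2b and 9.34, 9.04, 9.32 and 9.30 with shScrambled (log2 signal, replicates 1 to 4). Knockdown replicates 1, 2 and 4 lay above all controls and replicate 3 was level with the highest of them. The log2 fold change of Kank1 was 0.31 (SE 0.11, limma adjusted p = 0.127). Smarca2, the gene after Dmrt2, which encodes an ATPase of SWI/SNF chromatin remodelling complexes, had -0.21 (limma adjusted p = 0.176). Of the measured genes from Cbwd1 to Vldlr around the chromosome 19 cluster, Dmrt1 alone met the rule. As Dmrt1 led the choice of the family on this contrast, no confinement of the change to Dmrt1 is read from this.

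The neighbour that fell was Zfp352, a zinc finger gene that follows Dmrta1 on chromosome 4 and is transcribed in the early embryo. For replicates 1 to 4, its log2 signal read 7.01, 6.93, 7.32 and 7.20 with shKdm2b and 9.28, 8.52, 8.25 and 9.42 with shScrambled, without overlap. Its log2 fold change of -1.75 (SE 0.25, limma adjusted p = 0.00696) stood beside -0.12 for Dmrta1 and -0.24 for Cdkn2b, a cyclin-dependent kinase inhibitor gene on the other side (limma adjusted p = 0.490). Cdkn2b was at 10.13 in control replicate 1, at 9.11 to 9.28 in the other controls and at 9.12 to 9.30 in the knockdown arrays. The adjusted p of Zfp352 was 0.0872 with passages 28 to 30 alone, which leaves fewer arrays, and its call was lost there. Beside Dmrtb1, Lrp8, which encodes a reelin receptor, had a log2 fold change of 0.57 (SE 0.11, limma adjusted p = 0.0204), just short of 1.5-fold, and it met the rule when knockdown array 3 (0.66) or control array 4 (0.62) was left out. On its other side, Glis1 had 0.13 (limma adjusted p = 0.386). Around Dmrta2, Faf1 and Elavl4 had -0.11 and 0.19 (limma adjusted p = 0.243 and 0.132), and around Dmrtc2, Lypd4 and Rps19 had 0.04 and 0.09 (limma adjusted p = 0.760 and 0.646).

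**Figure D3:**
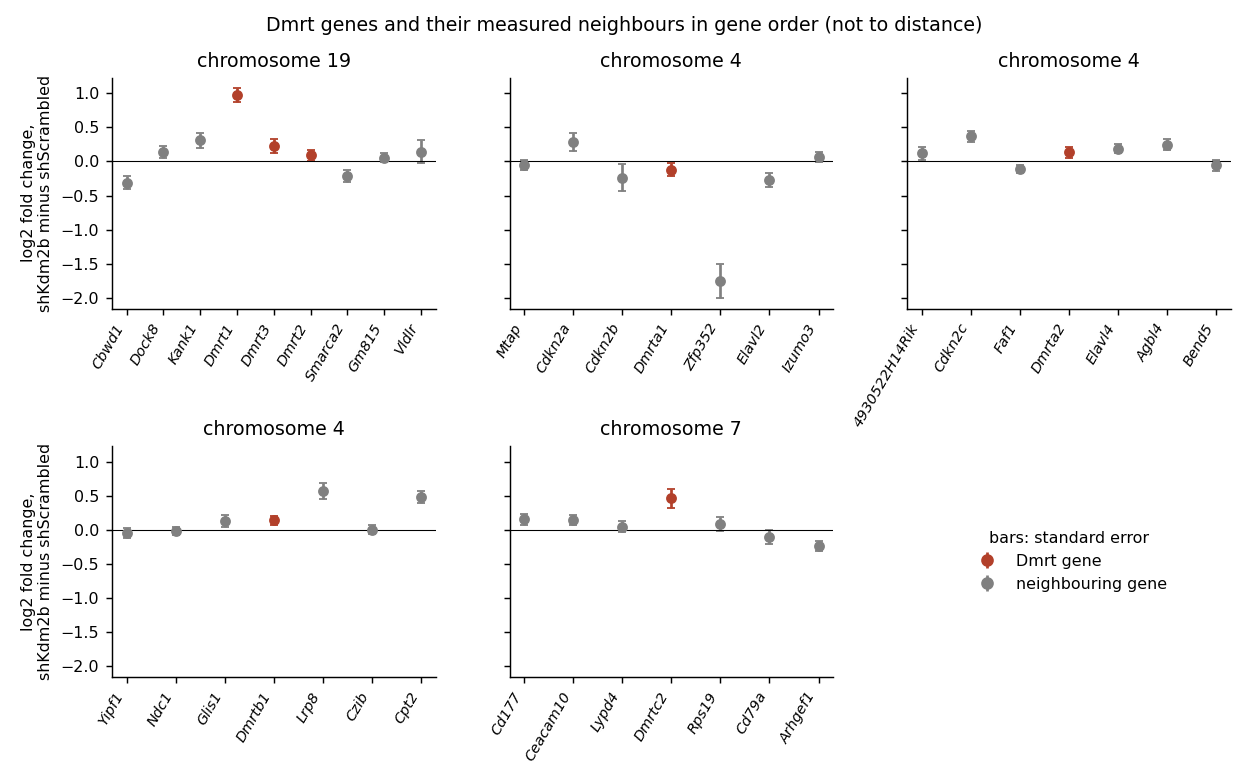
Log2 fold change (knockdown minus control, vertical axis) of the Dmrt genes (red) and their measured neighbours (grey) in gene order along the chromosome, which is not drawn to distance. Points are estimates and bars are standard errors from limma (4 arrays per group). Dmrt1 stands at 0.98 between Kank1 at 0.31 and Dmrt3 at 0.23, and Zfp352 at -1.75 is the neighbour farthest from 0.

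Genes of the tissues in which Dmrt factors act were examined as 5 lists of other genes, which were compiled with earlier results of these arrays known and share some members. The median log2 fold changes of the lists were 0.04 to 0.07, beside 0.05 over all genes, and the counts stand beside shares of 1.42% higher and 1.43% lower over all genes. By list, 0 to 10.3% of the genes were higher and 0 to 8.57% lower by the rule, and nothing particular to a list is called from this. The unadjusted counts of the lists have no share of all genes beside them, and nothing is called from those either. Of 39 measured genes of gonad formation and sex determination, 1 rose, 2 fell and 36 did not meet the rule. Cyp11a1, which encodes the enzyme that starts steroid synthesis, rose by 0.76 on the log2 scale (SE 0.12, limma adjusted p = 0.0113), from 7.16 to 7.75 in the control arrays to 7.99 to 8.33 in the knockdown arrays. Fst, which encodes the activin antagonist follistatin, fell by 0.92 (SE 0.15, limma adjusted p = 0.0125). Fgfr2, a receptor gene for FGF signals in the testis, fell by 0.75 (SE 0.19, limma adjusted p = 0.0439), but any of 6 arrays decided that call, since the adjusted p was 0.0583 to 0.113 when knockdown array 1, 2 or 4 or control array 2, 3 or 4 was left out. Sry and Sox9, which direct testis formation, had log2 fold changes of 0.09 and 0.08 and did not meet the rule.

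Of 39 measured genes of spermatogonia and the entry into meiosis, 4 rose, 0 fell and 35 did not meet the rule in limma. Before adjustment, p in limma was under 0.05 for 12 higher and 7 lower genes, a limit at which all genes were not counted. Neurog3, a gene of spermatogonia and of endocrine and neural progenitors, rose by 0.65 on the log2 scale (SE 0.08, limma adjusted p = 0.00484). Dmc1, the meiotic recombinase gene, and Sycp3, a gene of the synaptonemal complex, each rose by 0.61 (SE 0.08 and 0.09, limma adjusted p = 0.00566 and 0.00656). Both missed the 1.5-fold limit when knockdown array 1 (0.57 and 0.58) or control array 2 (0.56 and 0.53) was left out. Prdm14, a regulator of primordial germ cells that ESCs also express, rose by 0.59 (SE 0.12, limma adjusted p = 0.0226), but not when knockdown array 1 was left out (0.54, under 1.5-fold), nor when knockdown array 2 or 4 or control array 2, 3 or 4 was (adjusted p of 0.0510 to 0.0687). Sycp1, another synaptonemal complex gene, named after its values were seen, had a log2 fold change of -0.79 (SE 0.26, limma adjusted p = 0.0990), but in the fit blocked on replicate number it met the rule as the only lower gene (limma adjusted p = 0.0101). Its signal rose with replicate number in both groups, from 7.02 to 7.95 with shKdm2b and from 7.99 to 8.92 with shScrambled. In each such pair the knockdown array was a passage earlier, and with passage as a covariate the list had 0 lower genes. Stra8, which is induced at the entry into meiosis, had 0.58 (limma adjusted p = 0.173).

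Of 35 measured genes of telencephalon patterning, 1 rose, 3 fell and 31 did not meet the rule. Bmp7, a signal of the dorsal midline, was the gene that rose (1.14 on the log2 scale, SE 0.27), and Pax6, Gli3 and Wnt5a, regulators of dorsal and cortical patterning, fell by 1.01, 0.83 and 0.98 (SE 0.20, 0.09 and 0.18). In limma their adjusted p-values were 0.0366, 0.0212, 0.00273 and 0.0168. Leaving out knockdown array 2 or 4 ended the calls on Pax6, Wnt5a and Bmp7, as did leaving out control array 2 for Pax6, control array 3 for Wnt5a and control array 2, 3 or 4 for Bmp7, at adjusted p of 0.0619 to 0.0683, 0.0527 to 0.0552 and 0.0901 to 0.0971, respectively. None of 20 measured genes of ventral spinal cord interneurons met the rule in limma (unadjusted p under 0.05 for 1 higher and 2 lower), and Pax2 (0.31, adjusted p = 0.0464) and Wt1 (means of 8.63 with shKdm2b and 9.64 with shScrambled, adjusted p = 0.0675) came nearest. Wt1 was at 8.69 in control replicate 1 and at 9.61 to 10.13 in the other controls, and it met the rule without that array (adjusted p = 0.00374), as did Ripply1 of the next list (adjusted p = 0.0438). None of 29 measured genes of somites and the dermomyotome met it in limma (unadjusted p under 0.05 for 1 higher and 0 lower), with Foxc2 at 0.23 (adjusted p = 0.175) and Ripply1 at -0.55 (adjusted p = 0.208).

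**Figure D4:**
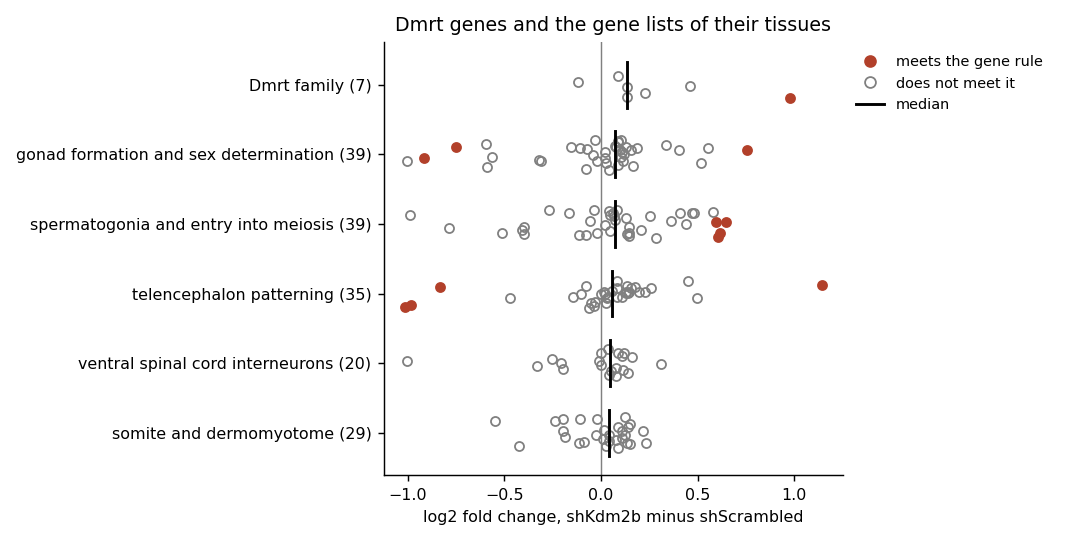
Log2 fold change (knockdown minus control, horizontal axis) of the 7 Dmrt genes and of the genes of 5 lists, with the number measured in brackets. Each point is a gene, filled where it met the rule for a changed gene, and black lines are medians. Dmrt1 at 0.98 is the filled point of its family, and the list medians lie between 0.04 and 0.07.

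In bulk samples, fewer cells of a type and less RNA per cell cannot be told apart. The 7 measured markers of somatic gonad cells had list means of 8.37 to 8.47 in the knockdown arrays and 8.07 to 8.23 in the control arrays, with 1, Cyp11a1, that met the rule. Their defining members Amh, Sox9, Nr5a1 and Foxl2 had log2 fold changes of 0.12, 0.08, 0.10 and 0.07, and Inha had 0.55 (limma adjusted p = 0.00171), short of 1.5-fold. The 6 germ cell markers had list means of 9.88 to 10.11 against 9.70 to 9.93, and of these Sycp3 met the rule while Ddx4 had -0.40. The 5 measured markers of neural progenitors had list means of 8.40 to 8.49 against 8.45 to 8.70. Pax6 fell by 1.01 and was the 1 that met the rule, while 3 of the 5 were above 0. Markers of primitive endoderm (6 genes, 8.79 to 9.11 against 8.81 to 9.00) had none that met the rule in limma. Their unadjusted p was under 0.05 for 3 higher and 1 lower, a limit at which all genes were not counted. Those of fibroblasts (6 genes, 8.62 to 8.88 against 8.56 to 9.03) had 1, Thy1, which rose by 0.72, while 4 of the 6 were below 0. Control replicate 1 held the highest control values of Col1a1 (10.37), Postn (7.54) and Twist2 (8.99). The part of any of these cell types in the Dmrt values was not tested.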

How the data were processed

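RNA of 4 shKdm2b and 4 shScrambled samples was measured on 1 array each. The authors deposited log2 values that oligo (version 1.18.1, per the labels) had computed by RMA, and these hold background correction, quantile normalization and probe summary. The genome build of the probe sets is not given in the sources used here. Of 35556 probe sets, 21789 name a single gene in GEO's platform annotation, 1621 name several and 12146 none. Array medians were 8.47 to 8.53, so that a shift of most transcripts one way is not visible, and the number of arrays limits the precision.

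All probe sets were fitted with limma 3.58.1 (lmFit, eBayes, R 4.3.3) and p-values were adjusted by Benjamini and Hochberg's method across probe sets. By the rule of the study's methods, a gene changed when an adjusted p under 0.05 was reached in most of its own probe sets, the most significant of which had to change at least 1.5-fold. The passage slope came from a fit with group and passage. The script was tested on simulated data. Same-numbered arrays deviated together (r = 0.239, 0.118, 0.355 and 0.222 for numbers 1 to 4, each above the limit of 0.1), and the labels describe parallel collection. The numbers were therefore used as pairs in an alternative fit blocked on replicate number. Unless a block is named, printed standard errors and p-values come from the unpaired fit. Blocked values are printed where they change a call. Alternatives were the replicate block, leaving out each array, passage as a covariate, passages 28 to 30 alone, further centring and normalization, eBayes with trend, array weights, filters and fold limits.

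The members and lists were chosen with earlier results of these data known. The text names all members, Kdm2b, up to 4 genes per list with the smallest p among those that met the rule (or the 2 with the smallest p), the nearest neighbours and those that met the rule, and the 5 genes most like Dmrt1. Sry, Sox9, Stra8, Sycp1 and the cell type markers were named after their values were seen. Figures were drawn with matplotlib 3.10.9.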

Additional observations from a re-analysis of the deposited data

Results flagged for a closer look

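Among the control arrays of Dmrt3, replicate 3 was the lowest at 8.89, apart from the other 3 at 8.99 to 9.00, and the gap to the nearest of them was 0.868 of the group's range, above Dixon's critical value for 4 samples. Chance gives such a gap in about 1 of 20 groups, and 14 groups of Dmrt values were examined. Without this array the Dmrt3 difference was 0.20.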

How the results depend on the processing

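The Dmrt values are given as descriptions, since the family was chosen on this contrast. The log2 fold change of Dmrt1 was 0.88 to 1.05 over 18 alternatives. With passages 28 to 30 alone and passage as a block, which leaves fewer arrays, it was 0.92 and missed the adjusted threshold, so that the number of Dmrt genes that met the rule was 0. The ranges of the other 6 were 0.13 to 0.29 for Dmrt3, 0.02 to 0.14 for Dmrt2, -0.23 to -0.06 for Dmrta1, 0.08 to 0.20 for Dmrta2, 0.11 to 0.18 for Dmrtb1 and 0.33 to 0.57 for Dmrtc2. Dmrt2 and Dmrta1 were too dim for the filter on probe sets at or above the median level. In the fit with a replicate block, the standard error of Dmrt1 was 0.08 around the same 0.98, and among the Dmrt genes no call changed.

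Leaving out 1 array turned the sign of the passage slopes of Dmrta2 (-0.030 to 0.042), Dmrtb1 (-0.027 to 0.0088) and Dmrtc2 (-0.071 to 0.082), and the other slopes kept theirs. It gave the neighbours 1 to 2 calls, with 2 when knockdown replicate 3 or control replicate 4 was left out. Of the neighbours, 2 met the rule with passage as a covariate, 0 with passages 28 to 30 alone, 0 with the filter at the median level and 4 without the fold limit. It gave the gonad list 1 to 4 lower genes, the spermatogonia list 1 to 4 higher and 0 to 1 lower, the telencephalon list 0 to 1 higher and 1 to 3 lower, and the spinal cord and somite lists 0 to 1 lower each. The spermatogonia list had its fewest higher genes without control replicate 2 (1) and knockdown replicate 1 (2), and the telencephalon list its fewest lower genes without knockdown replicate 2 or 4 (1 each). The gonad list had 4 lower genes without control replicate 1.

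With passages 28 to 30 alone, the counts were 0 higher and 0 lower for the gonad list, 0 higher for the spermatogonia list, and 0 higher and 0 lower for the telencephalon list. With passage as a covariate, the gonad list had 1 lower gene and the telencephalon list 0 higher. Array weights gave the gonad list 3 higher and 4 lower, the spermatogonia list 3 lower, and the spinal cord and somite lists 1 lower each. The filter at the median level gave the gonad list 0 higher and the spermatogonia and spinal cord lists 1 lower each. The mean of probe sets per gene also gave those 2 lists 1 lower each, and the spermatogonia list had 1 lower with the replicate block or with eBayes trend and robust. Without the fold limit, the gonad list had 3 higher, the spermatogonia list 2 lower, the telencephalon list 3 higher and the spinal cord list 1 higher. The cause was not tested. For the lists, the settings other than the block, passage and leaving out an array were chosen after seeing the data, as were those for the neighbours.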
